A study of Mus musculus with 8 samples.

Results

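Mitochondrial ribosomal proteins were taken as all genes of the LG count table whose symbol begins with Mrpl or Mrps followed by a digit. The rule found 78 of 24552 genes. Of these, 51 encode proteins of the large subunit of the mitochondrial ribosome (mitoribosome), 26 encode proteins of the small subunit, and Mrps36 carries the name but is known as a subunit of the 2-oxoglutarate dehydrogenase complex. The libraries came from exorbital LGs of female C57BL/6J mice aged 10 to 11 months, 4 fed ad libitum (AL) and 4 on a 40% calorie restriction (CR) for 4 months that began at 6 to 7 months of age. No other allele or agent is named for either group, and the labels list each library as a separate sample. Which of the study's cohorts, with their different chows, gave each library is not given in the sources used here.

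The mitoribosome translates the few messenger RNAs made inside mitochondria, which encode core subunits of the respiratory chain and the ATP synthase. Its RNAs come from mitochondrial DNA, but its proteins are encoded in the nucleus, made on cytoplasmic ribosomes and imported. Some of these proteins have counterparts in bacterial ribosomes and others were added in mitochondria. The LG is a secretory gland of the eye that makes the watery part of the tears, and its acinar cells spend much energy on protein secretion.

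Reads came from the 3' ends of polyadenylated transcripts, and totals ranged from 12051881 to 22156511 counts in AL and from 13720079 to 19310319 in CR. The unit of level is CPM, in which counts are brought to a shared library size with RLE factors, and 3 counts, taken as the floor of detection, correspond to between 0.152 and 0.231 CPM. The floor covers counting error only. All 11 LG markers were above the floor in every library, and they summed to between 247214 and 294657 CPM in AL and between 152458 and 273446 CPM in CR. Markers of the parotid gland, a salivary gland that lies nearby, summed to between 2018 and 25286 CPM in AL and between 19921 and 237668 CPM in CR, and 5 of the 7 were above the floor in every library. Of 10 leukocyte markers, which summed to between 68.6 and 239 CPM in AL and between 42.0 and 52.6 CPM in CR, 5 were above it, and the B cell receptor chain Cd79a was at or near 0. In bulk tissue, fewer cells of a type and less RNA per cell cannot be told apart. Markers of fibroblasts (6 of 6 above the floor in every library) summed to between 158 and 285 CPM in AL and between 134 and 202 CPM in CR, with Col1a1 and Col3a1 called lower and Dcn, the most abundant of them, at 109 CPM in AL and 127 CPM in CR (log2 fold change 0.22, adjusted p 0.663), and adipose markers to between 9.11 and 19.8 CPM in AL and between 26.0 and 96.8 CPM in CR. The part of the LG, leukocyte, fibroblast and adipose transcripts in the results below was not tested, and that of the parotid transcripts only by adding their mean level to the fit.

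The thresholds of the study ask for a 1.5-fold change or more and for an adjusted p under 0.05, and they were applied here with edgeR, where the study used DESeq2. In the edgeR fit of all 8 libraries with diet alone no mitoribosomal gene differed between CR and AL by these thresholds, while Mrpl36 did in DESeq2 and in some other edgeR fits given below. Of the 78 members, 74 were counted often enough to be tested. The quasi-likelihood test of edgeR, with p-values adjusted by the Benjamini-Hochberg method, called 0 of them and 1.98% of all 11211 genes tested, 134 higher and 88 lower in CR. Without CR replicate 4 they were 453 higher and 247 lower, with 2 members called, and without any other single library 35 to 91 higher and 25 to 75 lower, with 0 members called. At an unadjusted p under 0.05 it counted 5 members, of which 1 was higher and 4 were lower in CR, as did DESeq2 (5 members, of which Mrpl36 was past both thresholds) and limma voom (5 members, 0 past both). Of all genes tested in edgeR, 8.62% were higher and 8.1% were lower by that measure, which makes 16.7% in either direction against 6.76% of the members. The share of all genes was 13.9% in DESeq2 and 16.2% in limma voom, each against 6.76% of the members. The log2 fold change, CR over AL, had a median of 0.0046 over the members and of 0.011 over all genes. It was above 0 in 38 members and below 0 in 36, and it lay within 1.5-fold in either direction in 68 of 74 members. For 19 members (25.7%) the whole 95% interval of the difference lay within 1.5-fold, which was so for 13.0% of all genes. For the other members a change of 1.5-fold was within the interval.

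The summed level of the members differed little between libraries. It was 999, 924, 873 and 878 CPM in AL replicates 1 to 4 and 923, 911, 898 and 874 CPM in CR replicates 1 to 4. The AL mean was 918 ± 58.2 CPM (SD, n = 4) and the CR mean was 901 ± 21.2 CPM (SD, n = 4), and the CR range lay inside the AL range. Together the members took between 0.0781 and 0.106% of the counts of a library.

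**Figure D1:**
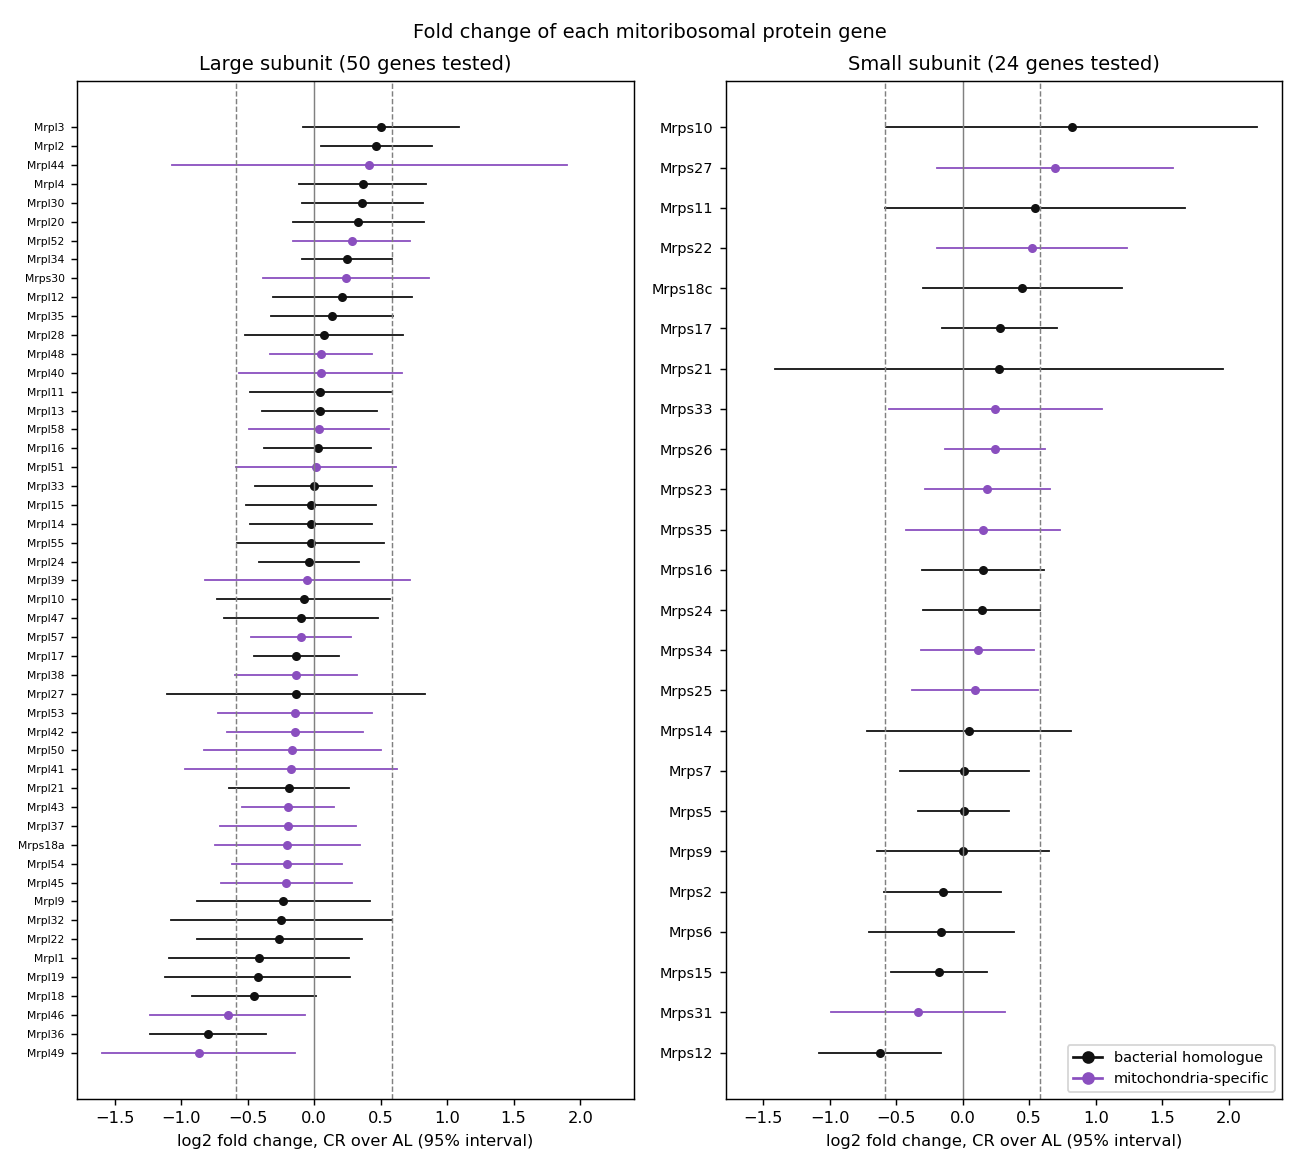
Log2 fold change, CR over AL, of the 74 members tested, one gene per row, with the large subunit on the left and the small subunit on the right. Points are fitted values, lines are 95% intervals, dashed lines mark a 1.5-fold change, and colour separates proteins with a bacterial counterpart from those specific to mitochondria. Most intervals cross 0, and Mrpl49, Mrpl36, Mrpl46 and Mrps12 lie lowest.

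The member with the smallest p was Mrpl36, which encodes bL36m, a small protein of the large subunit. It was at 30.4, 23.7, 21.1 and 19.0 CPM in the AL libraries and at 12.3, 15.7, 11.0 and 15.0 CPM in the CR libraries. Every CR library lay below every AL library, as in 5.2% of all genes tested. The AL mean was 23.5 ± 4.95 CPM and the CR mean 13.5 ± 2.21 CPM (SD, n = 4 each), with a log2 fold change of -0.80 (SE 0.20, 95% interval -1.23 to -0.36). The adjusted p from edgeR was 0.0635, and over the alternatives tried it ranged from 0.0194 to 0.395. Mrpl36 passed both thresholds in 5 of 19 alternatives, which were DESeq2 (adjusted p 0.0194), a block for the replicate number (0.0267), CR replicate 4 left out (0.0401), both replicates 4 left out (0.0262) and the library total as a covariate (0.0282). Exons of the gene, at chr13:73328513-73332178 on the plus strand of GRCm38, overlap exons of Ndufs6 on the other strand. Ndufs6, a complex I subunit, was at 84.5 ± 6.03 CPM in AL and 85.9 ± 14.5 CPM in CR (SD, n = 4 each), with a log2 fold change of 0.02.

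Mrps12 encodes uS12m, the small subunit protein at the decoding site, and was among the 3 most counted members. It was at 46.7, 41.1, 53.0 and 34.1 CPM in AL and at 30.0, 21.6, 24.4 and 37.7 CPM in CR. The groups overlapped because CR replicate 4 lay above AL replicate 4. The log2 fold change was -0.62 (SE 0.21) with an adjusted p of 0.149 in edgeR. Without CR replicate 4 it was -0.79 with an adjusted p of 0.0358, and without both replicates 4 it was -0.89 with an adjusted p of 0.0184. These are the libraries in which the Mrps12 levels of the diets lay closest.

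Mrpl49 encodes mL49, a large subunit protein specific to mitochondria. Its levels were 8.86, 6.26, 5.90 and 5.48 CPM in AL and 4.10, 4.32, 1.61 and 4.44 CPM in CR, again without overlap. CR replicate 3 stood below the other 3. The log2 fold change was -0.87 (SE 0.33, adjusted p 0.203 in edgeR), the lowest of all members tested. Mrpl46, which encodes mL46, another protein specific to mitochondria, was at 11.9, 6.81, 10.7 and 9.08 CPM in AL and at 8.84, 6.10, 4.77 and 4.89 CPM in CR. Its log2 fold change was -0.65 (SE 0.27, adjusted p 0.240), and its groups overlapped through AL replicate 2 and CR replicate 1.

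Mrpl2 was the member that was higher at an unadjusted p under 0.05. It encodes uL2m, a core protein near the peptidyl transferase centre. Its levels were 15.7, 17.5, 16.0 and 13.9 CPM in AL and 20.4, 28.1, 22.3 and 16.5 CPM in CR. CR replicate 4 fell inside the AL range and the other 3 CR libraries lay above it. The log2 fold change was 0.47 (SE 0.19, adjusted p 0.237 in edgeR). Mrpl34, which encodes bL34m and is named here after its values were seen, was the only member tested whose CR libraries all lay above the AL libraries, as in 4.58% of all genes. It was at 19.8, 18.4, 17.7 and 20.1 CPM in AL and at 25.3, 23.2, 20.8 and 21.0 CPM in CR, a log2 fold change of 0.25 (SE 0.16, adjusted p 0.476).

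**Figure D2:**
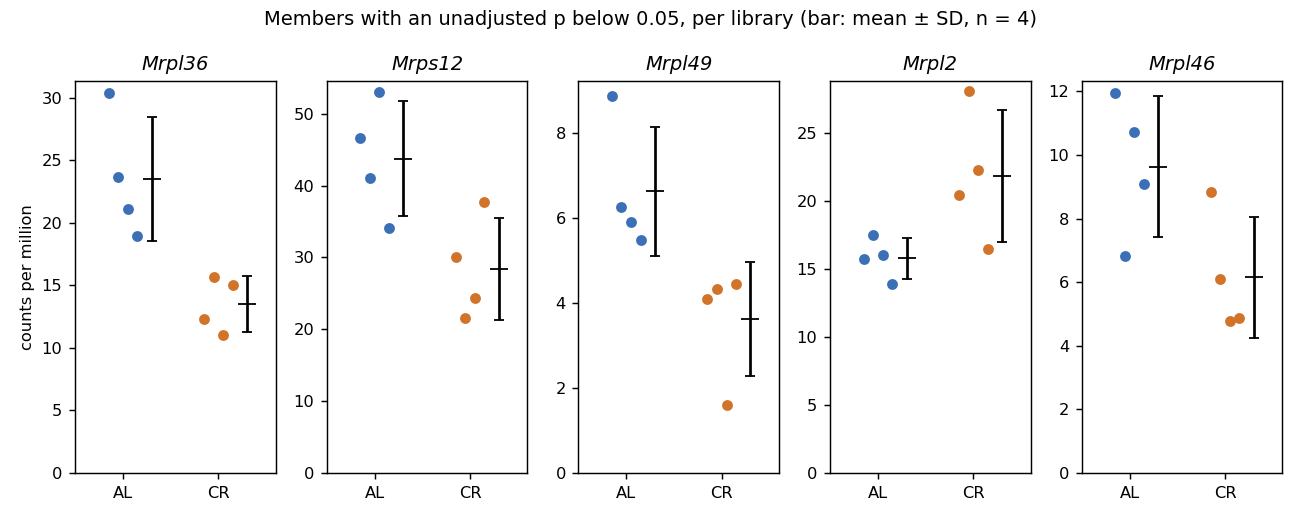
Level in CPM of the 5 members with an unadjusted p under 0.05, one point per library (AL blue, CR orange), with the mean and SD of the 4 libraries in black. In Mrpl36 and Mrpl49 the lowest AL library lies above the highest CR library (19.0 against 15.7 CPM and 5.48 against 4.44 CPM), while the groups overlap in the other 3.

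The remaining members with the smallest p were Mrpl18, Mrpl3, Mrpl30, Mrps27 and Mrpl4. Mrpl18 encodes uL18m, which in bacteria contacts the 5S RNA of the ribosome, and was at 39.9, 25.3, 26.6 and 20.7 CPM in AL and 21.2, 16.6, 22.2 and 22.4 CPM in CR (log2 fold change -0.45, adjusted p 0.320). AL replicate 1 was highest and the other libraries overlapped. Mrpl3 (uL3m) was at 4.01, 3.99, 2.99 and 4.92 CPM in AL and 5.66, 6.51, 4.02 and 6.39 CPM in CR (0.50, adjusted p 0.393). Mrpl30 (uL30m) ranged from 23.9 to 31.7 CPM in AL and from 23.7 to 45.9 CPM in CR (0.36, adjusted p 0.432). For Mrpl30, CR replicate 4 was the lowest of all 8 libraries while the other 3 CR libraries were above all AL libraries. Mrpl4 (uL4m), a protein of the peptide exit tunnel, ranged from 6.26 to 9.34 CPM in AL and from 7.62 to 11.2 CPM in CR (0.37, adjusted p 0.449).

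The largest fitted log2 fold changes above 0 were in small subunit genes with few counts, and none passed the test. Mrps10 (uS10m) was at 0.848, 0.675, 0.146 and 1.27 CPM in AL and 0.495, 1.54, 0.991 and 2.22 CPM in CR, a log2 fold change of 0.82 with an SE of 0.64 and a 95% interval from -0.57 to 2.21. Mrps27, which encodes mS27, a pentatricopeptide repeat protein, was at 1.39, 1.29, 2.19 and 1.67 CPM in AL and 3.32, 3.14, 2.91 and 1.22 CPM in CR (0.69, SE 0.41, adjusted p 0.441). CR replicate 4 was below all AL libraries and the other 3 CR libraries were above them. Mrps11 (uS11m) was at 3.00, 0.981, 0.510 and 2.74 CPM in AL and 2.05, 3.14, 1.92 and 3.44 CPM in CR (0.54, SE 0.52). These 3 genes were the least counted of the members tested. Mrps22 (mS22) ranged from 2.49 to 6.34 CPM in AL and from 4.55 to 7.22 CPM in CR (0.52, SE 0.33). For these 4 genes the differences were within the spread of the libraries.

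By subunit, the medians lay on opposite sides of 0 and both were small. Of 50 large subunit genes tested, 19 had a log2 fold change above 0 and 31 below, with a median of -0.06. Of 24 small subunit genes, 19 were above 0 and 5 below, with a median of 0.15. Without AL replicate 3 the small subunit median was 0.028 and the large subunit median -0.095, and without CR replicate 4 the large subunit median was -0.021. Divided by evolutionary class, the same large subunit genes had medians of -0.03 for 29 with a bacterial counterpart and -0.14 for 21 specific to mitochondria. The same small subunit genes had medians of 0.05 for 15 with a counterpart and 0.19 for 9 specific to mitochondria. The median over all genes was 0.011, and the class medians were not recomputed with libraries left out. The summed small subunit level divided by the summed large subunit level was 0.356, 0.381, 0.399 and 0.403 in AL and 0.407, 0.378, 0.381 and 0.444 in CR. The diets overlapped in this ratio, which was 0.385 ± 0.021 in AL and 0.402 ± 0.031 in CR (SD, n = 4 each). In the sums abundant genes count for more than in a mean of log values, in which each gene counts the same. The sums also hold the subunit genes that were not tested, while the means below cover only the 50 and 24 genes tested. The mean log2(CPM + 0.5) of the small subunit genes was 3.01, 3.03, 2.81 and 3.04 in AL and 3.05, 3.13, 3.06 and 3.15 in CR, and minus that of the large subunit genes it was -0.54, -0.44, -0.54 and -0.37 in AL and -0.35, -0.33, -0.23 and -0.22 in CR. Neither overlapped between the diets, by a small margin in both. Genes are not independent replicates and no test was made of these means, so these counts describe the 8 libraries.

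Of the other members with a known role, none was called. Mrpl12 (bL12m) and Mrpl10 (uL10m) form the stalk that recruits translation factors. Mrpl12 was at 22.6, 13.1, 13.3 and 12.0 CPM in AL and 16.8, 20.5, 20.2 and 12.9 CPM in CR (log2 fold change 0.21, SE 0.24), and AL replicate 1 stood above the other 3 AL libraries. Mrpl10 was at 6.70, 8.16, 5.83 and 8.27 CPM in AL and 4.03, 6.34, 6.01 and 11.1 CPM in CR (-0.08, SE 0.30). Mrpl58 encodes a peptidyl-tRNA hydrolase built into the large subunit that releases stalled chains, and it ranged from 8.09 to 14.6 CPM in AL and from 8.39 to 13.3 CPM in CR (0.04, SE 0.24). Mrps30 and Mrps18a, named for the small subunit, encode proteins now placed in the large subunit (mL65 and mL66). Mrps30 was at 7.32, 5.77, 6.05 and 3.75 CPM in AL and 5.52, 9.89, 6.07 and 5.50 CPM in CR (0.24, SE 0.29). Mrps18a ranged from 3.96 to 5.98 CPM in AL and from 4.03 to 5.39 CPM in CR (-0.20, SE 0.25), and its paralogue Mrps18c (bS18m) ranged from 2.62 to 8.65 CPM in AL and from 5.20 to 10.1 CPM in CR (0.45, SE 0.34). The diets overlapped in each of these genes.

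The most counted members were Mrpl57, Mrpl52 and Mrps12. Counts are not divided by transcript length here because each transcript is read at its 3' end. Mrpl57 (mL63) was at 45.2, 45.0, 48.0 and 34.3 CPM in AL and 44.6, 40.7, 43.7 and 32.0 CPM in CR, lowest in replicate 4 of each diet, with a log2 fold change of -0.10 (SE 0.17). Mrpl52 (mL52) ranged from 27.8 to 40.6 CPM in AL and from 31.2 to 55.6 CPM in CR (0.28, SE 0.20). The mean over all 8 libraries had a median of 8.58 CPM over the 74 members tested and of 6.44 CPM over all genes tested, and 13 members reached 20 CPM.

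The 4 members that could not be tested were Mrpl23, Mrps18b, Mrps28 and Mrps36. Mrpl23, for uL23m at the exit of the peptide tunnel, had 6, 0, 0 and 3 counts in AL and 0, 4, 2 and 18 counts in CR. Mrps18b, the remaining Mrps18 paralogue (mS40), had 0, 7, 7 and 5 counts in AL and 0, 5, 0 and 3 in CR. Mrps36 had 0, 2, 0 and 2 counts in AL and 0, 0, 1 and 0 in CR, at or under the floor in every library. At these counts a difference in these genes was not detectable. Whether depth or the mapping and counting of reads kept the counts low was not tested. Mrpl23 and Mrps18b share 66.9% and 53.3% of the 75-base windows at their 3' ends with another gene or its other strand. Rpl26, Rps27 and Ndufs5, which are outside the family and are named after their values were seen, had 0 counts in every library. Mrps28 (bS1m) had 2, 10, 4 and 111 counts in AL and 0, 13, 2 and 148 counts in CR, so that nearly all of its counts came from replicate 4 of each diet.

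The levels of a few members followed the library total, at a share close to that of all genes. AL replicate 4 and CR replicate 4 had the most counts, 22156511 and 19310319. With the log2 of the library total as a term beside diet, a fit chosen after the data were seen, 4 members (5.41%) had an adjusted p under 0.05 for the total in edgeR's quasi-likelihood test, as had 5.25% of all genes tested (480 higher with the total, 109 lower). All 4 members were higher with a larger total, and 0 were lower. They are named here after their values were seen. Mrps21 (bS21m) was at 1.23, 3.93, 0.729 and 6.70 CPM in AL and 0.424, 4.32, 1.73 and 8.83 CPM in CR, a slope of 4.43 log2 units per doubling of the total (adjusted p 0.0121). Mrpl44 (mL44) was at 0.771, 3.93, 0.729 and 5.99 CPM in AL and 1.06, 5.33, 2.29 and 6.72 CPM in CR (slope 3.79, adjusted p 0.0179). Mrpl27 (bL27m) had a slope of 2.39 (adjusted p 0.0214) and Mrps14 (uS14m) a slope of 1.71 (adjusted p 0.0405). In these 4 genes the replicates 2 and 4 of each diet were above the replicates 1 and 3, and the diets overlapped, with log2 fold changes between -0.14 and 0.42. What else separated these libraries was not tested.

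**Figure D3:**
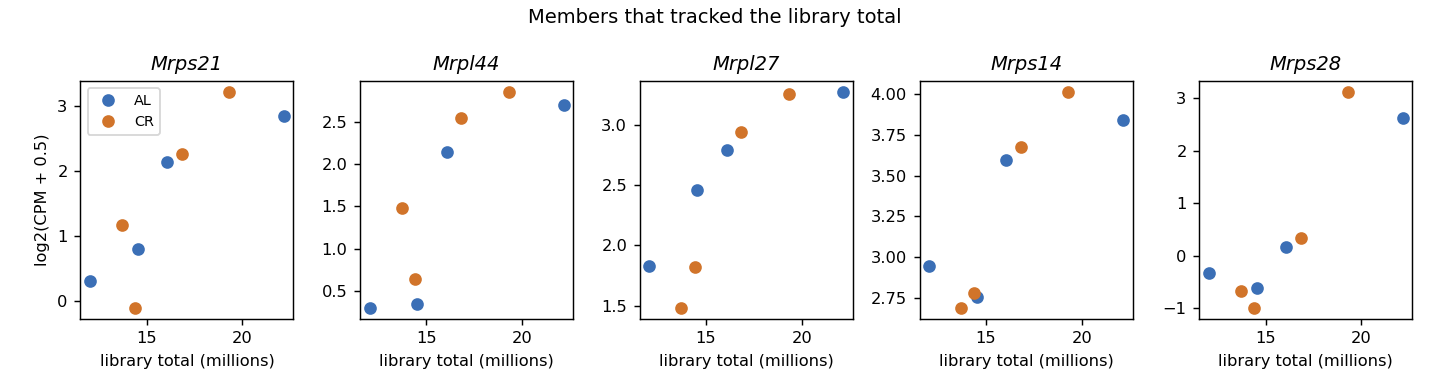
Level as log2(CPM + 0.5) against the library total for the 4 members with an adjusted p under 0.05 for the total and for Mrps28, which could not be tested. Each point is a library (AL blue, CR orange). In all 5 genes the deepest libraries, replicate 4 of each diet, lie highest, and AL and CR points run along the same course.

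The same libraries, replicate 4 of each diet, also deviated alike over the 74 members, which include the 4 genes above. After subtraction of the diet mean, the deviations of AL replicate 4 and CR replicate 4 correlated with r = 0.72 over the 74 members, those of AL replicate 3 and CR replicate 1 with r = 0.63, and those of AL replicate 4 and CR replicate 1 with r = -0.69. Over all genes tested the values were 0.51, 0.38 and -0.45. These are correlations across genes within libraries, and genes are not independent replicates. The first pair had the highest and the last the lowest value between an AL and a CR library. The values were not recomputed without those 4 genes. The SD of log2 values within a diet had a median of 0.31 over the members and 0.38 over all genes, and it was above 0.5 in 13.5% of the members and 29.8% of all genes. It was highest in Mrps21 (1.32) and lowest in Mrps5 (0.080), which encodes uS5m and was between 15.9 and 18.4 CPM in all 8 libraries.

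**Figure D4:**
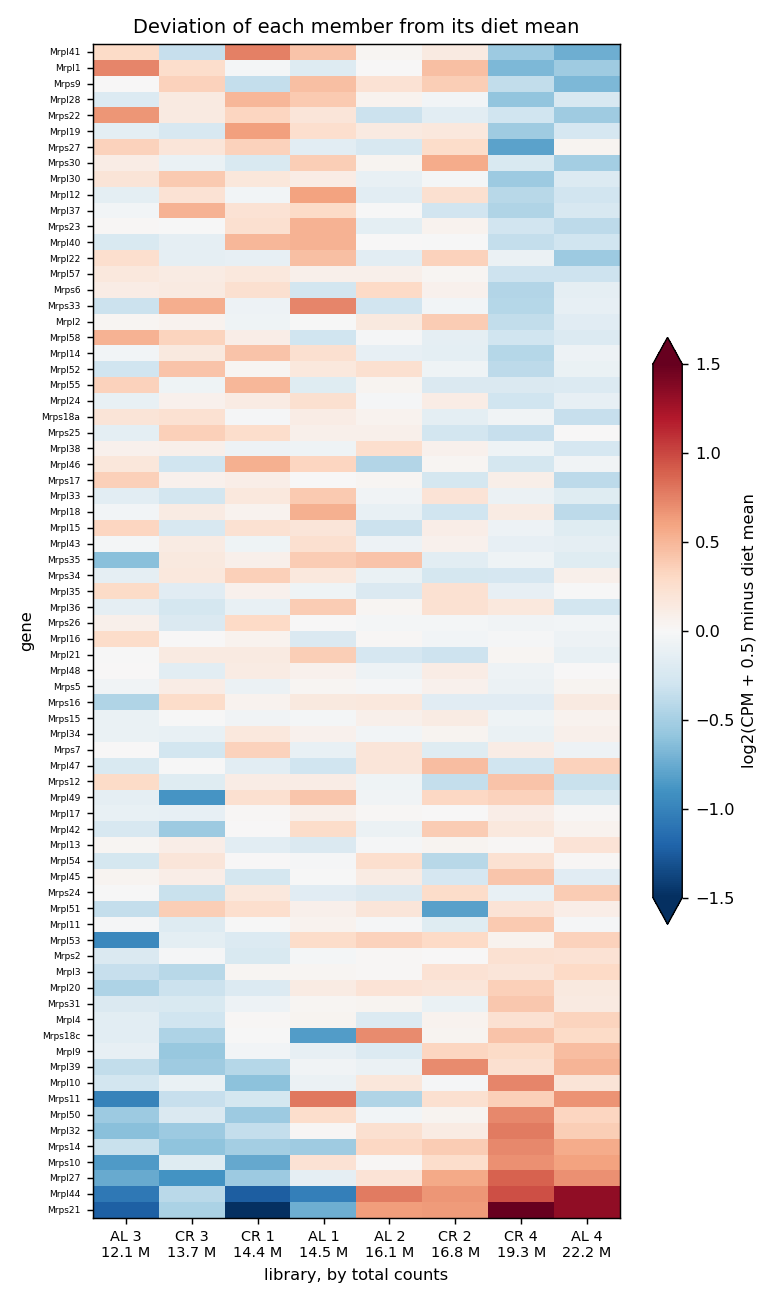
Deviation of each of the 74 members from its diet mean, in log2(CPM + 0.5), with libraries ordered by their total counts and genes ordered by their mean deviation in AL replicate 4 and CR replicate 4. Red is above the diet mean and blue below. The order of the rows follows those 2 columns by construction, and Mrps21 and Mrpl44 at the bottom pass from blue in the smaller libraries to red in the larger ones.

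Other genes of mitochondrial translation were counted from lists. None of the 5 mitoribosomal proteins with other symbols was called, and their median log2 fold change was 0.09 (-0.098 without AL replicate 3), with Gadd45gip1 (mL64) at -0.28 and Ptcd3 (mS39) at -0.37. Among 24 assembly factors tested, 0 were called, and 1 on each side of 0 had an unadjusted p under 0.05. Of all genes tested, 8.62% were higher and 8.1% lower by that measure. The median of the assembly factors was -0.04, with a range of -0.13 to -0.02 when each library was left out, lowest without AL replicate 4. Mterf3, of the mitochondrial termination factor family, was at 2.16, 2.21, 3.06 and 4.46 CPM in AL and 2.05, 1.36, 1.55 and 1.61 CPM in CR (-0.86, adjusted p 0.261). Mpv17l2, an inner membrane protein, ranged from 9.55 to 17.5 CPM in AL and from 13.6 to 28.0 CPM in CR (0.58, adjusted p 0.273). The assembly factors thus held values on both sides of 0.

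Of 15 mitochondrial translation factors tested, 0 were called and 2 were on each side at an unadjusted p under 0.05, beside 8.62% higher and 8.1% lower of all genes. Their median of -0.05 turned to 0.06 without CR replicate 1 and reached -0.16 without CR replicate 4. Tufm, the elongation factor that brings tRNAs to the mitoribosome, was at 3.62, 3.74, 3.21 and 1.83 CPM in AL and 1.77, 1.48, 1.24 and 1.22 CPM in CR (-1.11, SE 0.37, adjusted p 0.141). Gfm2, the factor that splits the mitoribosome after release, was at 25.3, 20.3, 29.0 and 20.1 CPM in AL and 18.8, 13.9, 16.0 and 13.3 CPM in CR (-0.61, SE 0.19, adjusted p 0.122). In both genes every CR library lay below every AL library, as in Pdf (-0.28) and in 5.2% of all genes, while Mtfmt (0.84) had every CR library above, as 4.58% of all genes did. Pdf and Mtfmt are named after their values were seen. Of 19 genes of mitochondrial aminoacyl-tRNA synthesis, 13 were below 0, with a median of -0.23, and 0 were called. With each library left out this median was between -0.31 and -0.10, nearest 0 without AL replicate 1. Wars2, the tryptophan enzyme, was at 3.08, 2.21, 3.28 and 2.18 CPM in AL and 1.27, 1.18, 1.67 and 1.61 CPM in CR (-0.90, adjusted p 0.220), and Cars2, the cysteine enzyme, had a log2 fold change of -0.64 (adjusted p 0.185). Of 9 genes of mitochondrial transcription and DNA maintenance, 8 were below 0 (median -0.27, or -0.42 without AL replicate 1, 0 called), with Tfb2m, a transcription initiation factor, at -0.75 and Polg, the DNA polymerase, at -0.64.

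Among 9 regulators of nuclear genes for mitochondria, 1 was called. Ppargc1a, the coactivator PGC-1α, was at 5.93, 3.31, 2.04 and 0.660 CPM in AL and 23.6, 32.1, 25.6 and 3.44 CPM in CR (2.85, SE 0.66, adjusted p 0.0497 in edgeR). CR replicate 4 lay within the AL range. The mean log2(CPM + 0.5) of the 7 parotid markers was 7.53, 6.05, 6.23 and 3.17 in AL and 11.7, 12.9, 10.1 and 9.41 in CR, lowest in replicate 4 of each diet as was Ppargc1a. When this score was added to the fit, the log2 fold change of Ppargc1a was -0.20 (adjusted p 0.965). Since the score did not overlap between the diets, the diet and the score cannot be told apart in this fit. Over the 19 alternatives Ppargc1a passed both thresholds in 8, and in 10 of the 11 others its log2 fold change was between 2.49 and 3.42 with an adjusted p of 0.05 or more, the exception being the parotid score. Esrra, a nuclear receptor that works with PGC-1α, had a log2 fold change of 0.97 (adjusted p 0.203). None of the factors linked to mitoribosomal promoters was called. Their log2 fold changes were 0.45 (SE 0.27, adjusted p 0.448) for Nrf1, -0.22 (SE 0.29, adjusted p 0.782) for Gabpa and 0.10 (SE 0.16, adjusted p 0.828) for Yy1.

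The cytoplasmic ribosomal proteins, set beside the members, had a median log2 fold change of 0.50 over 77 genes tested, with 73 above 0. In the edgeR fit of all 8 libraries with diet alone 0 were called, although Rpl8 passed both thresholds in 5 and Rpl36a in 3 of the 19 alternatives. In that fit the unadjusted p was under 0.05 in 34 that were higher and in 0 that were lower, and in 24 the CR libraries all lay above those of AL. These are 44.2% and 31.2% of the genes tested, against 8.62% and 4.58% of all genes. With the parotid score in the fit the median was 0.87. Rpl8 was at 215, 191, 198 and 219 CPM in AL and 373, 306, 341 and 285 CPM in CR (0.66, adjusted p 0.0803), and Rpl36a had a log2 fold change of 0.71 (adjusted p 0.0990). The subunits of oxidative phosphorylation, many of which are assembled with products of the mitoribosome, had a median of 0.20 over 73 genes tested, 65 above 0. None of them was called, and the unadjusted p was under 0.05 in 6 that were higher and 2 that were lower. By that measure 8.62% of all genes tested were higher and 8.1% lower. Ndufb10 of complex I was at 20.6, 24.4, 18.4 and 24.1 CPM in AL and 44.0, 30.8, 35.1 and 28.4 CPM in CR (0.66, adjusted p 0.0927), and Cox7a1, an isoform of heart and muscle, had a log2 fold change of 2.32 (adjusted p 0.0927). Cox7a1 was at 0.308, 0.613, 0.219 and 0.101 CPM in AL and 2.69, 1.84, 0.743 and 1.06 CPM in CR. Skeletal muscle markers summed to 9.86, 0.797, 2.55 and 6.95 CPM in AL and 2.19, 57.0, 2.85 and 35.0 CPM in CR. Adipose markers (4 of 9 above the floor in every library) summed to 19.8, 18.2, 9.11 and 16.2 CPM in AL and 57.4, 61.6, 96.8 and 26.0 CPM in CR. The diets overlapped in the muscle sum and did not overlap in the adipose sum or in Cox7a1, and the part of either tissue in the Cox7a1 values was not tested. Of 14 genes of mitochondrial mass and import, 11 were above 0 (median 0.21, or 0.51 with the parotid score, 0 called), among them the chaperone Hspa9 at 0.49 and the outer membrane channel Vdac1 at 0.48. The difference between these lists and the members was not tested. All the lists were compared in the same 8 libraries, and the genes encoded in mitochondrial DNA were not analysed here.

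**Figure D5:**
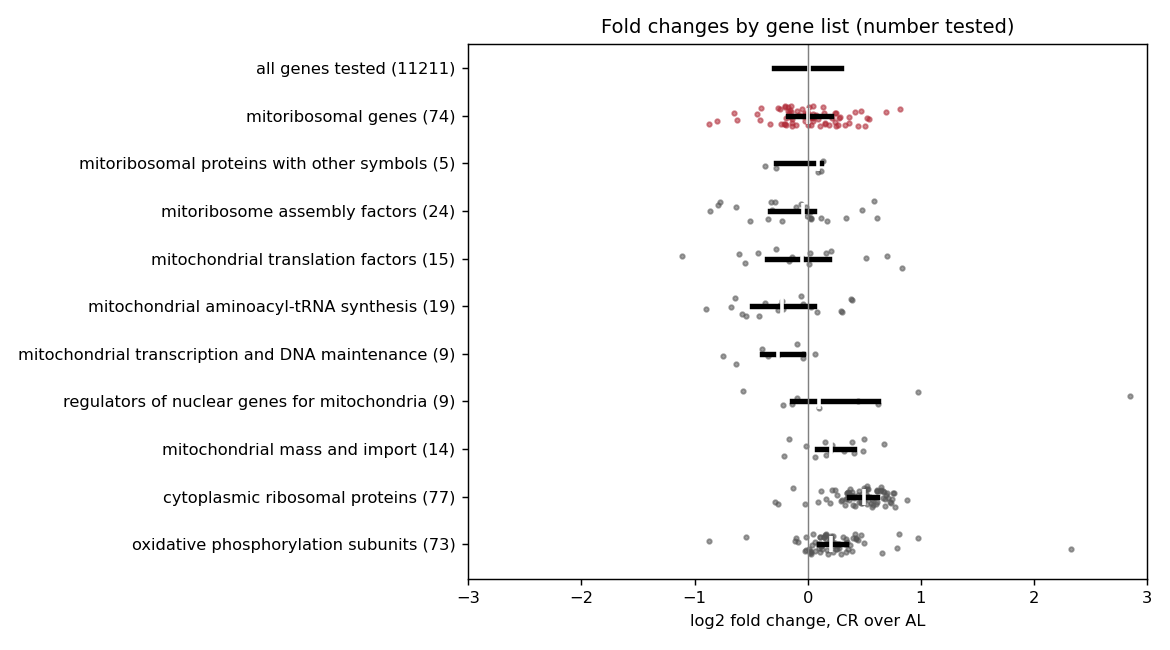
Log2 fold change, CR over AL, of the genes of each list, one point per gene, with the interquartile range as a black bar and the median as a white mark (all genes as a bar only). The number of genes tested stands in brackets. The mitoribosomal genes (red) centre on 0.0046, the cytoplasmic ribosomal proteins on 0.50 and the oxidative phosphorylation subunits on 0.20.

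The 78 members lie on 17 chromosomes, by GENCODE vM21 on GRCm38. A protein-coding gene starts within 1000 bases upstream on the opposite strand in 18 members (23.1%), against 6.79% of 21938 protein-coding genes. The latter include genes too little counted to be tested here, and the share among tested genes was not computed. Mrps12, at chr7:28739641-28741820 on the minus strand, faces Sars2, the mitochondrial serine enzyme, whose start is 172 bases away and whose log2 fold change was -0.23. Mrpl2, at chr17:46646229-46650139, faces Klc4 (207 bases, -0.17), and Mrpl49, at chr19:6053622-6057785 on the minus strand, faces Fau (59 bases, 0.38), which encodes a cytoplasmic ribosomal protein. Mrpl46, at chr7:78775236-78783531 on the minus strand, and Mrps11, at chr7:78783119-78792989 on the plus strand, are both members, and their exons overlap head to head. Over the 14 pairs in which both genes were tested, the partners had a median log2 fold change of -0.02, and 1 of them, Mitd1 beside Mrpl30, had an unadjusted p under 0.05. In 28 members an exon overlaps an exon on the other strand, and reads of such pairs can be told apart only if the counting used strand, which is not given in the sources used here. In 7 members more than 50% of the 75-base windows of the last 600 bases also occur in another gene or on the other strand of one, namely Mrpl53, Mrps25, Mrps34, Mrpl19, Mrpl24, Mrpl23 and Mrps18b, so their counts are uncertain. Mrpl36, Mrps12, Mrpl2 and Mrpl46 had no such window.

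Promoters, from 250 bases before to 50 after the start, were found for 69 members in RefSeq on GRCm38.p6. Letters of 4 motifs known from such genes were searched on both strands. The ETS letters CCGGAAG, read by GABPA among others, were in 37.7% of the members, 20.8% of the tested genes with a promoter and 9.93% of all genes with a promoter. The YY1 letters AAGATGGCG were in 11.6%, 3.88% and 1.64%, and the letters GCATGCGC of the NRF1 motif in 11.6%, 6.22% and 3.05%. The E-box CACGTG was in 7.25%, 12.1% and 8.09%. At least 1 of the 4 was in 38 members. A match is a description of the letters and not a site. Starts are those of RefSeq, which for Mrpl36 lies 2496 bases inside the gene as GENCODE draws it, since another transcript there begins further upstream. The 150 bases before the RefSeq start are shown for Mrpl36, the member with the smallest p (chr13:73330859-73331008, plus strand), for Mrpl2, the member with the smallest p among those higher in CR (chr17:46646071-46646220, plus strand), for Mrps27, which had the largest fitted value above 0 after Mrps10 (chr13:99344636-99344785, plus strand), and for Mrpl10, a stalk protein (chr11:97041432-97041581, plus strand). Capitals mark the letters found, which are an E-box that begins 43 bases and the YY1 letters, on the other strand, that begin 31 bases before the start of Mrpl36, an E-box 131 bases before the start of Mrpl2, the ETS letters, on the other strand, 48 bases before the start of Mrps27, whose YY1 letters lie outside the bases shown, and the NRF1 letters 134 bases before the start of Mrpl10.
Mrpl36: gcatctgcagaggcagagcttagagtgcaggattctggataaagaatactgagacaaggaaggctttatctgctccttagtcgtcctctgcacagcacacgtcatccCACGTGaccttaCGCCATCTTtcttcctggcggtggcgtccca
Mrpl2: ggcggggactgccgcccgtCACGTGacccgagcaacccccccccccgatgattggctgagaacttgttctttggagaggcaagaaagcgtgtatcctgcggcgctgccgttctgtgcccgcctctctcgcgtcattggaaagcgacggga
Mrps27: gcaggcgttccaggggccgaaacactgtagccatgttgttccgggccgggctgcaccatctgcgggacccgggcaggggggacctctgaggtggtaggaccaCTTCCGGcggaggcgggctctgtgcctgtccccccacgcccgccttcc
Mrpl10: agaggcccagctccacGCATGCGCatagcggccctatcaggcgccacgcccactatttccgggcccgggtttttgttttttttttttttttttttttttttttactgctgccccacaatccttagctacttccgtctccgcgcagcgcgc
The log2 fold changes of these 4 genes were -0.80, 0.47, 0.69 and -0.08. Mrpl36 and Mrpl2, which both hold an E-box, lay on opposite sides of 0.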

How the data were processed

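RNA from the LGs of 4 AL and 4 CR mice was sequenced from the 3' end in single reads of 75 bases (Lexogen QuantSeq FWD). On ROSALIND, the authors used cutadapt for trimming, STAR for alignment to mm10 and HTSeq for counting, and deposited raw counts per gene. Tool versions and the strand setting are not given in the sources used here. The deposited log2 values, made by the authors from the counts with DESeq2's relative log expression (RLE) factors, were recomputed with a largest difference of 0.000124 and not used further.

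Of 24557 rows, 5 repeated symbols were dropped. The study's own test was DESeq2. Here CR was compared with AL in edgeR 4.0.16 (R 4.3.3) with RLE factors, filterByExpr and quasi-likelihood F tests, adjusted over all 11211 genes tested. The SE was obtained as the fitted change over the root of its F statistic. The biological coefficient of variation was 34.7%. The labels do not say more of the replicates than that they are separate samples, so p-values measure only the spread between these samples. As alternatives, the factors were replaced by TMM or upper-quartile ones, the tool by DESeq2 1.42.0 or limma 3.58.1 voom, and the filter by none or by 10 counts in every library. Further alternatives were the omission of the 50 most counted genes, calls without the fold threshold, the replicate number as a block, a parotid score of 7 genes as a covariate and leaving out each library in turn. The library total as a covariate and leaving out both replicates 4 were added after the data were seen. Simulated data with 200 changed genes served to test the scripts.

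The members and lists were chosen with earlier results of these data known. Members named are those past both thresholds, the 10 with the smallest p, the 5 largest rises and falls, the 3 most and least counted and 9 fixed for their role. In each list the genes past both thresholds and the 2 with the smallest p are named. Other names are marked as chosen after their values were seen, or are neighbours or factors tied to a promoter motif. Mrpl58 has no gene identifier in the deposited table. Positions come from GENCODE vM21 and promoters from RefSeq on GRCm38.p6.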

Additional observations from a re-analysis of the deposited data

Results flagged for a closer look

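Of 104 groups of 4 libraries checked, 6 held a library far from the other 3 of its diet, judged by its gap to the nearest library as a share of the range. For a list fixed beforehand chance flags about 1 in 20 groups. That rate does not hold here, since genes picked outside the naming rules, Mrps28 among them, were also checked. Mrpl49 was at 1.61 CPM in CR replicate 3 and between 4.10 and 4.44 CPM in the other CR libraries. Mrpl12 was at 22.6 CPM in AL replicate 1 and between 12.0 and 13.3 CPM in the others. Mrps30 was at 9.89 CPM in CR replicate 2 and between 5.50 and 6.07 CPM in the others. Mrps36 was at 0.0619 CPM in CR replicate 3, which is 1 count, and at 0 in the others. Mrps28 was at 5.63 CPM in AL replicate 4, where the other AL libraries lay between 0.154 and 0.613 CPM, and at 8.22 CPM in CR replicate 4, where the others lay between 0 and 0.770 CPM.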

How the results depend on the processing

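The members' median log2 fold change stayed between -0.07 and 0.011 over 19 alternatives. Genes higher and lower in CR numbered 413 and 316 with DESeq2, 53 and 51 with voom, 271 and 165 without the filter, 0 and 0 with the parotid score, 413 and 243 without both replicates 4, 374 and 258 with the library total, and 35 to 453 and 25 to 247 when each library was left out, both highest without CR replicate 4. Members past both thresholds numbered 1 with DESeq2, 2 without both replicates 4, 1 with the library total and 0 to 2 with each library left out (2 without CR replicate 4). At an unadjusted p under 0.05, members higher were 0 with the parotid score, 3 without both replicates 4, 3 with the library total and 0 to 3 with each library left out, and members lower were 7 with the parotid score and 2 to 5 with each library left out (2 without AL replicate 1). In either direction the share of members was 9.46% with the parotid score (8.88% of all genes), 9.46% without both replicates 4 (19.3%), 10.8% with the library total (21.1%) and 10.8% with a replicate block (21.6%). With the parotid score the median was -0.15 for the large subunit, -0.35 for the proteins with other symbols, -0.31 for assembly factors, -0.23 for translation factors, -0.088 for regulators, 0.51 for mass and import and 0.87 for cytoplasmic ribosomal proteins. The sign of a median also turned without CR replicate 2 for the proteins with other symbols (to just below 0), with the block for translation factors (0.0091) and with the library total for assembly factors (0.0082). The small subunit median was 0.028 to 0.20 with each library left out, lowest without AL replicate 3. With a block for the replicate number, 388 genes were higher and 312 lower, 1 member was past both thresholds (Mrpl36) and 3 were higher at an unadjusted p under 0.05. Same-numbered libraries deviated together with r = 0.182, 0.0995, 0.278 and 0.507 over all genes and with 0.419, 0.144, 0.357 and 0.716 over the members. Pairing was judged over all genes, where replicate 2 fell under 0.1 and AL replicate 3 was closest to CR replicate 1, so the numbers were not taken as pairs. The sign turned with the parotid score in Mrpl2 (-0.085), Mrps22 (-0.20), Mrpl12 (-0.57), Mrpl10 (0.65), Mrpl58 (-0.046), Mrps30 (-0.88), Mterf3 (0.011), Mpv17l2 (-0.14) and Ppargc1a (-0.20), and with a library left out in Mrpl10 (-0.41 to 0.11) and Mrpl58 (-0.087 to 0.25). Past both thresholds in some of 19 alternatives were also Mrps12 (2), Gfm2 (2), Rpl8 (5), Rpl36a (3) and Ndufb10 (4), and in 2 of 18 Cox7a1. The cause was not tested. The 95% intervals of the members were between 0.64 and 3.37 log2 units wide, widest in Mrps21.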
